A study of Mus musculus with 8 samples.

Results

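The mGluR6-TRPM1 cascade of ON bipolar cells was examined in the retinal transcriptome of adult mice as 10 genes of the receptor complex and of rod bipolar cells, *Grm6*, *Trpm1*, *Nyx*, *Gpr179*, *Lrit3*, *Gnao1*, *Rgs7*, *Rgs11*, *Prkca* and *Pcp2*, taken by symbol from the 17500 genes of the deposited table. All 10 had a row, and all 10 were among the 16797 genes that passed the filter on low counts. RNA-seq of whole retinas compared 4 control mice (M833, M894, M896 and M898) with 4 *Rbfox2*-/- mice (M893, M901, M902 and M909), which the sample titles call Rbfox2 KD, with 1 library per mouse. The background of all mice was C57BL/6J, their age was 6 months, and retinas were collected in the morning. *Rbfox2*-/- animals were *Rbfox2* fl/fl and carried 1 copy of a Cre transgene, whose recombinase is activated by tamoxifen given by gavage and removes the floxed exons of *Rbfox2*. The transgene is expressed in many tissues, so the deletion was not directed at bipolar cells. Per the methods, controls were age-matched heterozygous *Rbfox2* fl/+ mice, whose Cre status is not given in the sources used here. The sample labels give tamoxifen with a time of 4 months for every mouse. In the paper, the drug was given on consecutive days, and *Rbfox2*-/- retinas were taken 4 months after the deletion was induced. The methods also mention a corn oil vehicle. A difference between the groups in floxed alleles therefore cannot be told apart from one in Cre or drug.

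ON bipolar cells receive glutamate from photoreceptors at a synapse that inverts the sign of the signal. Glutamate released in darkness activates the metabotropic receptor mGluR6, its G protein Go keeps the cation channel TRPM1 closed, and light, by lowering glutamate, lets the channel open. Orphan receptor GPR179 holds RGS proteins, which speed the inactivation of Go, at the dendritic tips, and the leucine-rich repeat proteins nyctalopin and LRIT3 are needed to place the channel there. Loss of mGluR6, TRPM1, nyctalopin, GPR179 or LRIT3 causes congenital stationary night blindness. Rbfox2, an RNA-binding protein that regulates splicing and recognizes the element UGCAUG, was seen by immunostaining in ganglion, amacrine and horizontal cells of the mouse retina.

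The element was searched for as TGCATG, in the sense direction and with overlapping matches counted, in 1 spliced protein-coding transcript per gene of GENCODE M21 (GRCm38), the one nearest in length to the authors' gene model. It occurred in 7 of the 10 cascade genes and in 52.5% of 14925 genes with such a transcript. Per kilobase there were 0.33 matches in the cascade transcripts, whose median length was 3639 bases, and 0.28 in all, whose median was 2851 bases. *Prkca* had 4 matches, *Trpm1* and *Nyx* had 3 each, *Grm6*, *Gpr179*, *Rgs7* and *Rgs11* had 1 each, and *Lrit3*, *Gnao1* and *Pcp2* had none. When the longest transcript was taken, 8 of 10 cascade genes and 56.1% of all genes held the element, *Lrit3* being the gene added. Introns were not searched. For *Nyx* the transcript searched had 5183 bases and the authors' gene model 3621 bases. Whether that model holds the *Nyx* matches was not tested. The windows of *Grm6* and *Trpm1* are shown because the ratio of these genes separated the groups, and those of *Nyx* because its matches overlap. Each window has 30 bases, the capitals mark the element, and all lie on the plus strand. The *Grm6* match is in the 3′ UTR (chr11:50865663-50865692), those of *Trpm1* are in coding exons 8, 16 and 26 of 27 (chr7:64208960-64208989, chr7:64226887-64226916 and chr7:64248207-64248236), and the overlapping *Nyx* pair is in the 5′ UTR (chrX:13467697-13467726 and chrX:13467701-13467730). A match describes the letters of the transcript and does not show that Rbfox2 binds there.
Grm6 3′ UTR: attggaagaccgTGCATGgacttaatttat
Trpm1 exon 8: attatcatggagTGCATGaagaagaaagaa
Trpm1 exon 16: cgtggggaagagTGCATGgcgaaggccttg
Trpm1 exon 26: aactgaaaaaacTGCATGagtttgaggagc
Nyx 5′ UTR, first match: aacagtcaacccTGCATGcatgcacagtcc
Nyx 5′ UTR, overlapping match: gtcaaccctgcaTGCATGcacagtccttgc

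Total gene counts ran from 160630226 to 211283591 per library. Expression is given as CPM, counts scaled to a common library size after TMM normalization, and 3 counts correspond to at most 0.0189 CPM. The lowest count of any cascade gene in any library was 5197 (*Nyx* in M894), so that the spread between mice, and not counting error, set the precision. *Rbfox2* itself had 143.8 to 156.8 CPM in controls and 53.6 to 59.4 CPM in *Rbfox2*-/- retinas. M901 and M902 stood apart from the other 6 libraries along the first principal component (40.5% of the variance) and had 1440 and 1739 CPM of *Xist*, a transcript of the inactive X chromosome, against 1.71 to 2.22 CPM elsewhere, so results are also given without them. M909 stood apart along the second component (19.2%). In control M833 the summed level of 7 ganglion cell markers was 669.6 CPM, against 1043 to 1090 CPM in the other controls. The 3 lens markers, which would mark carried-over lens, summed to at most 2.38 CPM.

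Per gene length, *Pcp2* was the most abundant cascade transcript and *Nyx* the least abundant. The deposited FPKM, a fragment count scaled to gene length and library total, averaged 209 ± 17.3 (SD, n = 8 mice) for *Pcp2*, 173 ± 9.34 for *Gnao1*, 62.4 ± 4.77 for *Trpm1*, 56.1 ± 2.63 for *Prkca*, 37.5 ± 4.25 for *Rgs11*, 30.8 ± 3.63 for *Grm6*, 27.5 ± 1.85 for *Lrit3*, 25.8 ± 1.47 for *Gpr179*, 17.3 ± 1.08 for *Rgs7* and 9.0 ± 1.15 for *Nyx*. Neighbours in this order whose ranges over the 8 mice did not touch were *Gnao1* and *Trpm1*, *Prkca* and *Rgs11*, *Gpr179* and *Rgs7*, and *Rgs7* and *Nyx*. The other neighbours overlapped, which includes the run from *Rgs11* through *Grm6* and *Lrit3* to *Gpr179*. In percentiles of all genes of the table, the levels ran from the 58.2 percentile for *Nyx* to the 99.1 percentile for *Pcp2*. The order depends on the gene model: with TMM-scaled counts per kilobase of all annotated exon bases, only 4 of the 10 genes kept their place, *Pcp2* and *Nyx* among them, and *Prkca* moved to the second place and *Trpm1* to the sixth.

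**Figure D1:**
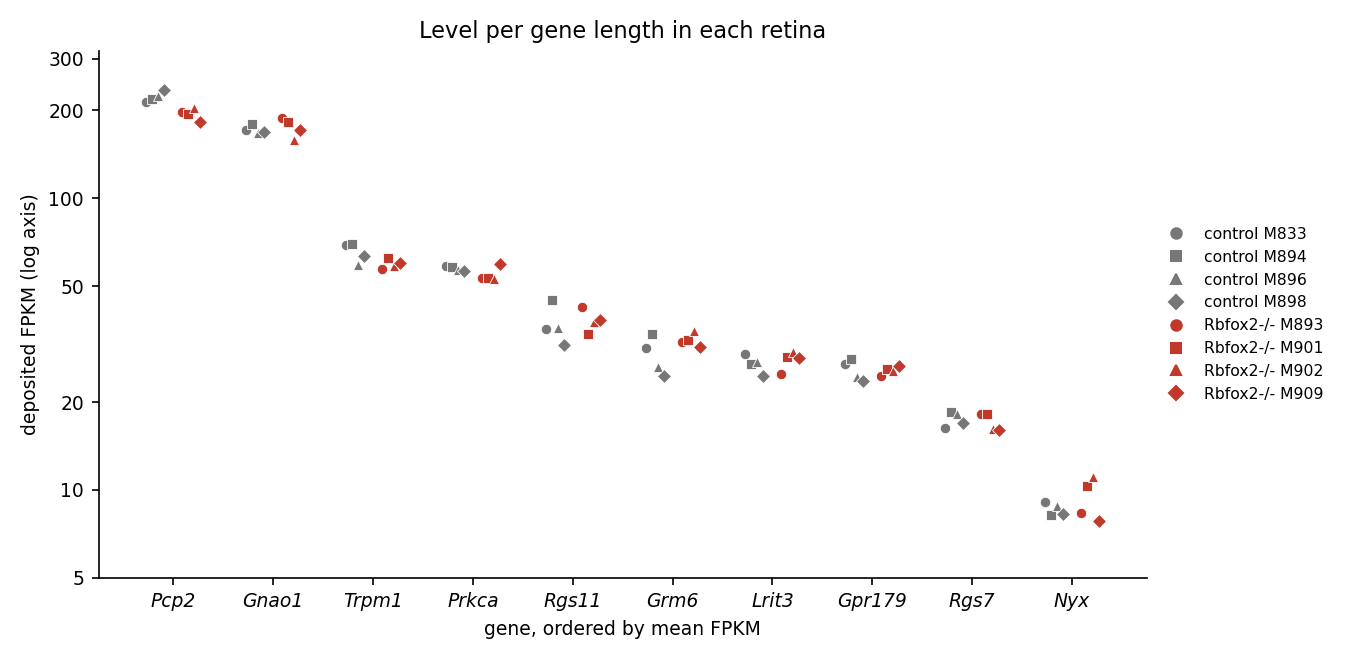
Deposited FPKM (vertical axis, log scale) of the 10 cascade genes, ordered from left to right by their mean over 8 mice, with 1 point per mouse, controls in grey and Rbfox2-/- in red. Pcp2 averages 209 FPKM and Nyx 9.0 FPKM, and Rgs11, Grm6, Lrit3 and Gpr179 form a run of overlapping ranges.

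Between *Rbfox2*-/- and control retinas, 0 of the 10 cascade genes passed a false discovery rate (FDR) of 0.05 in the quasi-likelihood test of edgeR (Benjamini-Hochberg adjusted), and the adjusted p ranged from 0.149 to 0.957. Over all genes, 0.0655% passed this threshold. One cascade gene, *Pcp2*, had an unadjusted p under 0.05 and was lower in *Rbfox2*-/- retinas, against 13.3% of all genes in either direction, 6.42% higher and 6.87% lower. It was also the only cascade gene whose groups did not overlap, which was the case for 7.03% of all genes, 3.64% higher and 3.39% lower. With DESeq2 as the test, *Pcp2* was the 1 cascade gene with an adjusted p under 0.05, a threshold that 2.80% of all genes with an adjusted p passed, while edgeR's likelihood ratio test, limma-voom and limma-trend called 0 of the 10. The log2 fold changes (*Rbfox2*-/- over control) were positive for 6 genes and negative for 4, with a median of 0.029 against 0.0016 over all genes tested. The 95% intervals of the 10 genes lay between -0.27 and 0.40, that is between -17.0% and 31.9%. In RNA of whole retina, a lower value can come from fewer cells of a type or from less RNA per cell, and these cannot be told apart.

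**Figure D2:**
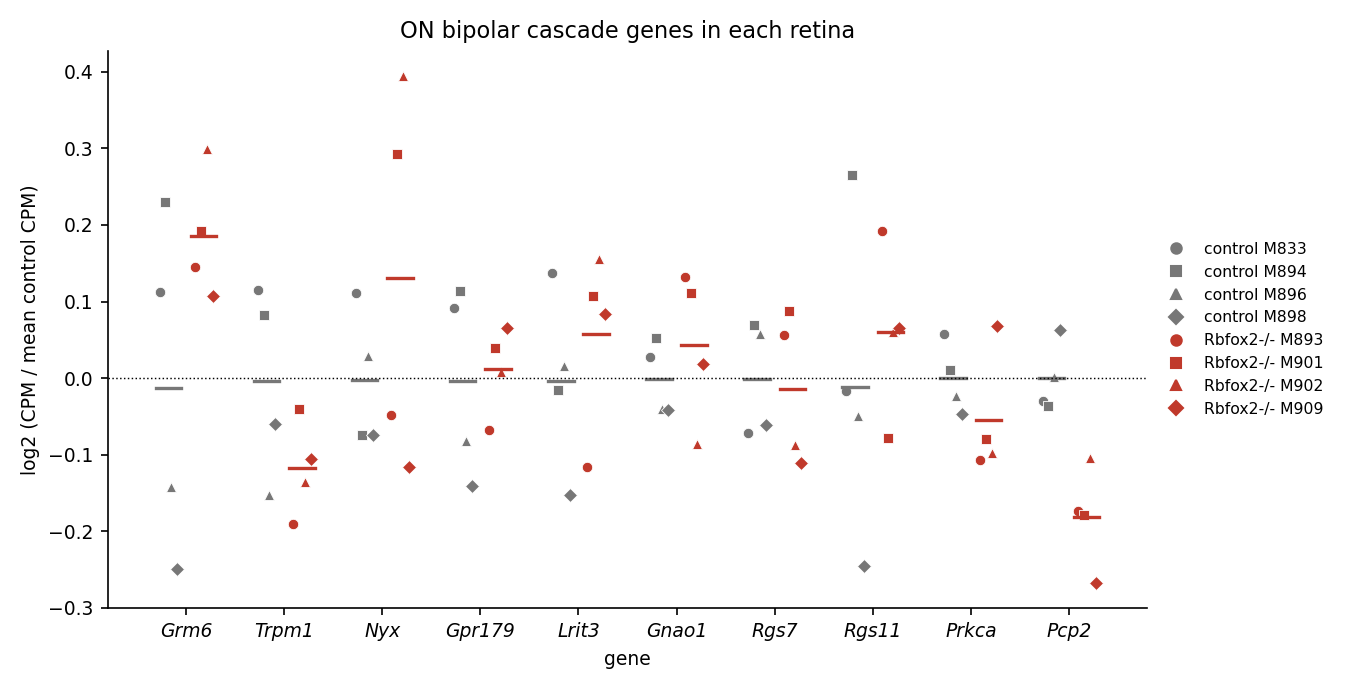
Level of each cascade gene in each mouse relative to the control mean (vertical axis, log2 of CPM over mean control CPM), with controls in grey and Rbfox2-/- in red, 1 symbol per mouse, and horizontal bars at the mean of the log2 values of a group. Only for Pcp2 do all 4 Rbfox2-/- mice lie below all 4 controls, and for Nyx M901 and M902 lie above the other 6 mice.

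*Grm6* encodes mGluR6, the receptor at the head of the cascade (chromosome 11 of GRCm38, 50850685 to 50866208). Its level was 135, 147, 113 and 105 CPM in controls M833, M894, M896 and M898 and 138, 143, 154 and 135 CPM in *Rbfox2*-/- mice M893, M901, M902 and M909. The 4 *Rbfox2*-/- values lay within a narrow span near the upper end of the controls, which spread from 105 to 147 CPM, and 1 of them was above every control. Means were 125 ± 19.1 CPM (SD, n = 4) in controls and 142 ± 8.35 CPM (SD, n = 4) in *Rbfox2*-/- retinas, and the log2 fold change was 0.19 (standard error, SE, of 0.095, 95% interval -0.025 to 0.40, edgeR adjusted p = 0.426), a difference within the spread between mice. Without M901 and M902 it was 0.12.

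*Trpm1*, the cation channel that the cascade keeps closed in darkness (chromosome 7, 64153835 to 64269775), pointed the other way. Controls had 400.3, 391, 332 and 354 CPM, and *Rbfox2*-/- retinas had 324, 359.6, 337 and 343 CPM, in the same order of mice. The *Rbfox2*-/- values lay in the lower part of the control range, and 1 of them was below every control. Means were 369.7 ± 31.8 CPM (SD, n = 4) in controls and 341 ± 14.9 CPM (SD, n = 4) in *Rbfox2*-/- retinas. The log2 fold change of -0.12 (SE 0.061, 95% interval -0.25 to 0.020, edgeR adjusted p = 0.440) did not exceed the spread between mice. It was -0.15 without M901 and M902.

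Taken within a mouse, the ratio of *Grm6* to *Trpm1* CPM separated the groups. It was 0.337, 0.374, 0.341 and 0.297 in controls and 0.427, 0.397, 0.457 and 0.392 in *Rbfox2*-/- retinas. Every *Rbfox2*-/- mouse was above every control, with means of 0.418 ± 0.0302 (SD, n = 4) and 0.337 ± 0.0318 (SD, n = 4), a difference of 0.31 on the log2 scale that was 0.28 without M901 and M902. A ratio of CPM depends on the lengths of both transcripts, so only its change between mice can be read. Of the 45 ratios between cascade genes, 3 did not overlap between the groups, and over all pairs of genes tested with counts in every mouse 6.97% did not, so the number of such pairs was near the background. Without M901 and M902, where 2 *Rbfox2*-/- mice face 4 controls, 8 of the 45 did not overlap, against 14.4% of all pairs. The other two were *Grm6* to *Pcp2*, with 0.906 to 1.35 in controls and 1.40 to 1.49 in *Rbfox2*-/- retinas, and *Trpm1* to *Gpr179*, with 1.48 to 1.64 in controls and 1.38 to 1.47 in *Rbfox2*-/- retinas. These ratios were singled out after their values were seen and were not tested.

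**Figure D3:**
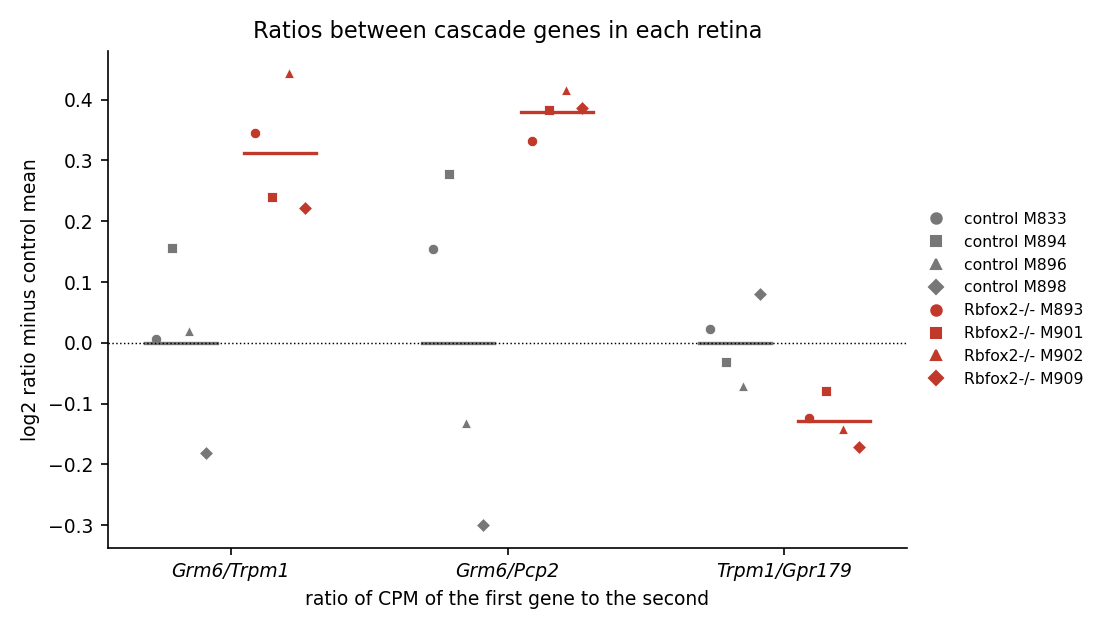
Log2 ratio of the CPM of 2 cascade genes in each mouse minus the control mean (vertical axis) for the 3 of 45 pairs whose groups do not overlap, with controls in grey, Rbfox2-/- in red and bars at group means. The Grm6 to Trpm1 ratio is higher in all 4 Rbfox2-/- mice by 0.31 on average, and the Trpm1 to Gpr179 ratio is lower in all 4 by a smaller amount.

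*Nyx* encodes nyctalopin, which binds TRPM1 at the dendritic tips, and lies on the X chromosome (13466110 to 13489313). Its level was 33.4, 29.4, 31.6 and 29.4 CPM in controls and 29.9, 37.9, 40.7 and 28.6 CPM in *Rbfox2*-/- retinas. The high values belonged to M901 and M902, the libraries with *Xist*, while M893 lay within the control range and M909 below it. Means were 30.9 ± 1.95 CPM (SD, n = 4) in controls and 34.3 ± 5.94 CPM (SD, n = 4) in *Rbfox2*-/- retinas, giving a log2 fold change of 0.15 (SE 0.11, edgeR adjusted p = 0.589). Without M901 and M902 its sign turned, with a log2 fold change of -0.084, so the higher *Rbfox2*-/- mean rested on these libraries. *Lrit3*, the other organizer of the channel (chromosome 3, 129787881 to 129804030), had 60.6, 54.5, 55.7 and 49.5 CPM in controls and 50.8, 59.3, 61.3 and 58.3 CPM in *Rbfox2*-/- retinas. The ranges of the groups overlapped, the log2 fold change was 0.061 (SE 0.071, 95% interval -0.098 to 0.22), and it turned to -0.015 without M901 and M902.

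*Gpr179*, which anchors the RGS proteins beside the receptor (chromosome 11, 97332109 to 97352077), was the cascade gene with the smallest spread among *Rbfox2*-/- mice, with a coefficient of variation of 3.95%. It had 254, 258, 225 and 216 CPM in controls and 227, 245, 239 and 249 CPM in *Rbfox2*-/- retinas, which lay inside the control range. The log2 fold change was 0.012 with a 95% interval of -0.12 to 0.15.

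*Rgs7* and *Rgs11* encode the RGS proteins that shorten the active state of Go in ON bipolar cells and act in part redundantly. *Rgs11* (chromosome 17, 26202951 to 26211324) had 72.7, 88.5, 71.1 and 62.0 CPM in controls and 84.0, 69.7, 76.7 and 77.0 CPM in *Rbfox2*-/- retinas, and all *Rbfox2*-/- values lay inside the wide control range. *Rgs7* (chromosome 1, 175059087 to 175492500) had 39.8, 44.0, 43.6 and 40.1 CPM in controls and 43.6, 44.5, 39.4 and 38.8 CPM in *Rbfox2*-/- retinas, which straddled the controls on both sides. The log2 fold changes were 0.063 for *Rgs11* (95% interval -0.15 to 0.28) and -0.011 for *Rgs7* (95% interval -0.14 to 0.12). *Gnao1*, the alpha subunit of Go (chromosome 8, 93809966 to 93969388), had 512, 521, 489 and 489 CPM in controls and 551, 543, 474 and 509 CPM in *Rbfox2*-/- retinas. Of the *Rbfox2*-/- mice, 2 were above every control and 1 was below, with a log2 fold change of 0.046 (SE 0.052, 95% interval -0.070 to 0.16). *Gnao1* and *Rgs7* are expressed in many retinal neurons, so their values in whole retina are not those of ON bipolar cells alone. Control M833, low in ganglion cell markers, was the lowest control for *Rgs7*, with 39.8 CPM against 40.1 CPM in M898. For *Gnao1* it was not the lowest, with 512 CPM against 489 CPM in M896 and in M898. The part of ganglion cells in these values was not tested.

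*Prkca* and *Pcp2* are used as markers of rod bipolar cells, the ON bipolar cells that serve rods. Their values here are of whole retina and were not assigned to rod bipolar cells. *Prkca* encodes protein kinase C alpha, the usual immunostaining marker of these cells (chromosome 11, 107933387 to 108343928). It had 497, 481, 470.3 and 463 CPM in controls and 444, 452, 446 and 501 CPM in *Rbfox2*-/- retinas. In *Rbfox2*-/- retinas, 3 values were below every control, whereas M909 was above every control, and the log2 fold change was -0.052 (SE 0.047, edgeR adjusted p = 0.667). Without M909, a mouse singled out by its own value, it was -0.094 (edgeR adjusted p = 0.234), and the groups no longer overlapped. The share of all genes without overlap in these mice was not computed.

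*Pcp2*, a GoLoco-domain protein that binds Go alpha (chromosome 8, 3623371 to 3625545), had 109, 108, 111 and 116 CPM in controls and 98.5, 98.2, 103 and 92.3 CPM in *Rbfox2*-/- retinas. Every *Rbfox2*-/- mouse was below every control, with M902 the nearest to them. Means were 111 ± 3.52 CPM (SD, n = 4) in controls and 98.1 ± 4.51 CPM (SD, n = 4) in *Rbfox2*-/- retinas, a log2 fold change of -0.18 (SE 0.040, 95% interval -0.27 to -0.091) or -11.7%. The exact permutation test over the 70 groupings of the mice gave a two-sided p of 0.0286, the smallest that 4 mice against 4 allow. This p follows from the lack of overlap and adds no separate support. Groups did not overlap for 7.03% of all genes. Over all genes the adjusted p was 0.149 by edgeR and 0.00839 by DESeq2, and over all alternatives it lay between 0.00839 and 0.496. With each mouse left out the log2 fold change stayed between -0.21 and -0.15, and without M901 and M902 it was -0.22. On deposited FPKM the groups did not overlap either, with 214 to 235 FPKM in controls and 183 to 204 FPKM in *Rbfox2*-/- retinas.

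**Figure D4:**
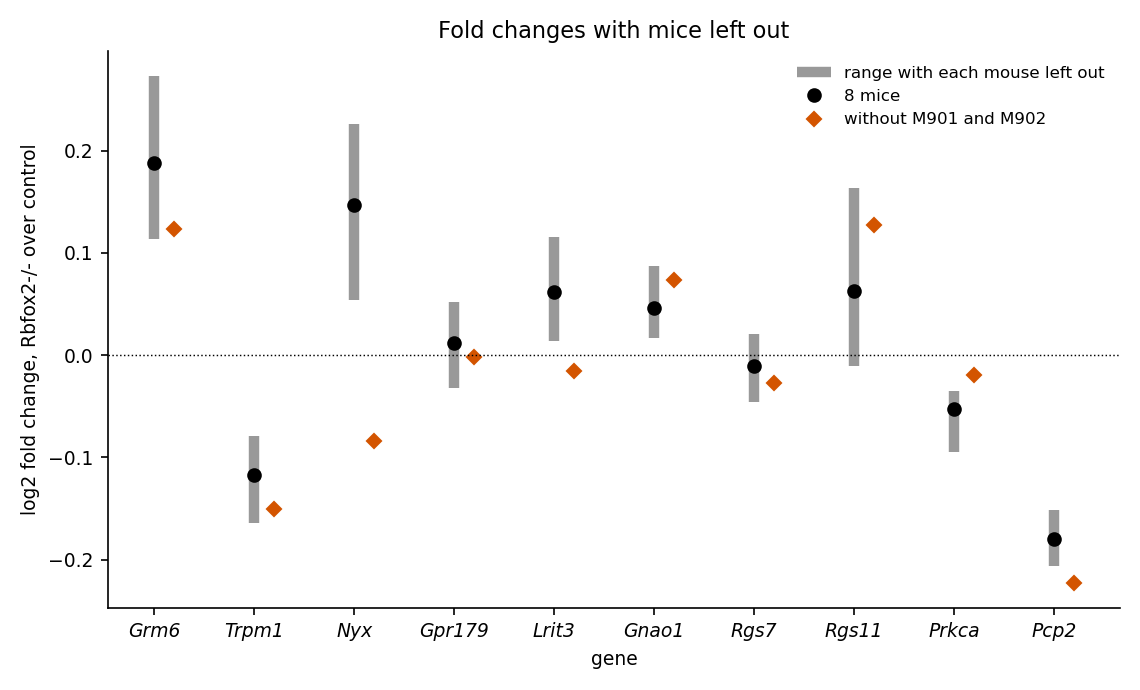
Log2 fold change of Rbfox2-/- over control (vertical axis) of each cascade gene over 8 mice (black), its range when each mouse is left out in turn (grey bar) and its value without M901 and M902 (orange). Pcp2 stays between -0.21 and -0.15 in the grey bar, and Nyx turns from 0.15 to -0.084 without M901 and M902.

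The partners of the cascade were taken as 5 lists of 32 genes, all of them tested. At an FDR of 0.05 the quasi-likelihood test of edgeR called 0 of them, its likelihood ratio test 1 (*Lrit2*), limma-voom and limma-trend 0, and DESeq2 6 (*Lrit2*, *Cacna2d4*, *Elfn1*, *Egflam*, *Grm8* and *Gng13*). By unadjusted p under 0.05, 6 partners were higher in *Rbfox2*-/- retinas and 3 were lower. Their median log2 fold change was -0.0024. Over all genes, 6.42% were higher and 6.87% lower at this p, and DESeq2 called 2.80%. The likelihood ratio test called 164 of the 16797 genes tested. Of the 6 higher genes, 5 belonged to the list of synaptic organizers and presynaptic partners.

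Among 9 synaptic organizers and presynaptic partners, 5 were higher with an unadjusted p under 0.05 and 1 was lower, against 6.42% and 6.87% of all genes, with a median log2 fold change of 0.13. *Lrit2*, a leucine-rich repeat gene related to *Lrit3* (chromosome 14, 37067929 to 37073743), had 192, 172, 164 and 172 CPM in controls and 220.3, 234, 229.9 and 205 CPM in *Rbfox2*-/- retinas. All *Rbfox2*-/- values were above all controls, with a log2 fold change of 0.34 (SE 0.056, edgeR adjusted p = 0.0837) that was 0.28 without M901 and M902. *Cacna2d4*, the auxiliary subunit of the photoreceptor calcium channel, had 501 to 549 CPM in controls and 575 to 610.5 CPM in *Rbfox2*-/- retinas, also without overlap, and a log2 fold change of 0.17 (SE 0.042). *Cacna1f*, the pore-forming subunit of that channel, overlapped between the groups, with 356 to 488 CPM and 464 to 513 CPM and a log2 fold change of 0.21 (SE 0.089). *Elfn1*, which binds mGluR6 across the rod synapse, had a log2 fold change of 0.16 (SE 0.043), and *Egflam*, which encodes pikachurin, one of 0.13 (SE 0.039). *Elfn2*, the cone counterpart of *Elfn1*, was lower, with 96.3 to 100.3 CPM in controls, 88.8 to 95.4 CPM in *Rbfox2*-/- retinas and a log2 fold change of -0.100 (SE 0.033). *Lrit1* had 0.069, *Dag1*, which encodes dystroglycan, -0.020 and *Lrfn2* -0.013. Without M901 and M902, 4 of the 9 genes were higher at this threshold and 1 lower, *Cacna1f* being the gene lost. With each mouse left out, 4 or 5 were higher. The shares of all genes at this threshold in these smaller sets of mice were not computed, so these counts have no background beside them.

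The summed levels of photoreceptor markers were compared beside this list, since its presynaptic genes are photoreceptor genes. Of 7 rod markers, 3 were higher with an unadjusted p under 0.05 (*Gnat1*, *Pde6b* and *Sag*). Over all genes, 6.42% were higher and 6.87% lower at this p. The summed level of the 7 rod markers was 61246 to 66004 CPM in controls and 63662 to 69098 CPM in *Rbfox2*-/- retinas. Of 6 cone markers, *Opn1sw* was higher and *Opn1mw* lower, and the sum was 829 to 843 CPM in controls and 884 to 1009 CPM in *Rbfox2*-/- retinas. The summed level of the 9 partners was 2124 to 2348 CPM in controls and 2413 to 2525 CPM in *Rbfox2*-/- retinas, and the part of the photoreceptor share in it was not tested. None of these markers was at 0 in any group.

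On the G protein side, 1 of 12 partners had an unadjusted p under 0.05, against 13.3% of all genes in either direction. A negative log2 fold change was found for 9 of 12, with a median of -0.059. *Gng13*, the gamma subunit of Go in ON bipolar cells, had 70.9, 69.7, 71.7 and 70.2 CPM in controls and 62.2, 64.6, 67.4 and 61.8 CPM in *Rbfox2*-/- retinas. All 4 *Rbfox2*-/- mice were below all controls, with a log2 fold change of -0.14 (SE 0.036, edgeR adjusted p = 0.192), and -0.19 without M901 and M902. Its partner *Gnb3*, the beta subunit, had 286 to 343 CPM in controls and 308 to 376 CPM in *Rbfox2*-/- retinas and a log2 fold change of 0.13 (SE 0.074). *Gnb5*, the beta subunit that pairs with RGS7 and RGS11, had -0.14 (SE 0.067). The RGS genes *Rgs9* and *Rgs6* had -0.11 and -0.059, the anchors *Rgs9bp*, *Rgs7bp* and *Gpr158* had 0.063, -0.085 and -0.051, and the alpha subunits *Gnai1*, *Gnai2*, *Gnai3* and *Gnaz* had -0.058, 0.039, -0.075 and -0.060. Of these 12 genes, *Rgs9* and *Rgs9bp* are known mainly from photoreceptors. The values of the others are also of whole retina and were not assigned to ON bipolar cells.

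In either direction, 13.3% of all genes had an unadjusted p under 0.05. In the families of the receptor, channel and kinase, *Grm8* was the only metabotropic receptor of 3 that did. It had 36.1, 37.1, 34.2 and 35.6 CPM in controls and 39.2, 41.9, 38.9 and 42.4 CPM in *Rbfox2*-/- retinas, without overlap, and a log2 fold change of 0.18 (SE 0.045, edgeR adjusted p = 0.179). *Grm4* had 0.071 and *Grm7* 0.067. Of 6 other TRPM channels, *Trpm3* had 180.1 to 210.1 CPM in controls and 145 to 190.1 CPM in *Rbfox2*-/- retinas and a log2 fold change of -0.24 (SE 0.084), which was -0.10 without M901 and M902, its lowest libraries. *Trpm2*, *Trpm4* and *Trpm7* had -0.056, 0.059 and 0.074. *Trpm5* and *Trpm6* were below 1 CPM in each group mean, with log2 fold changes of -0.89 (SE 0.59) and 0.21 (SE 0.31). *Prkcb*, a conventional protein kinase C gene related to *Prkca*, had -0.050.

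**Figure D5:**
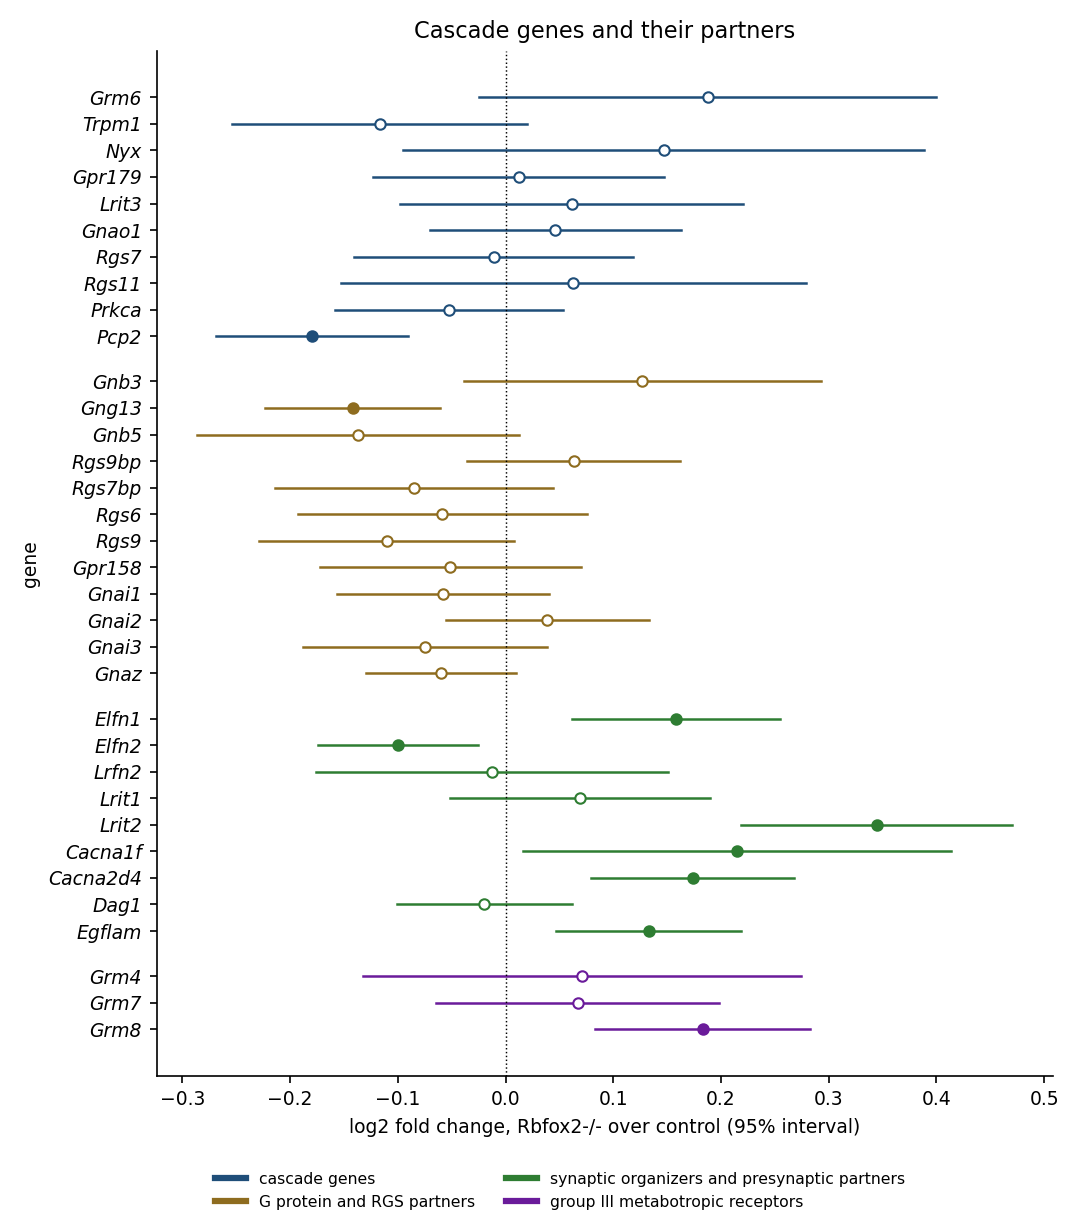
Log2 fold change of Rbfox2-/- over control (horizontal axis) with its 95% interval for the 10 cascade genes, 12 G protein and RGS partners, 9 synaptic organizers and presynaptic partners and 3 related receptors. Filled points have an unadjusted p under 0.05 and open points do not, and filled points to the right of 0 are found mostly among the presynaptic partners, with Lrit2 at 0.34.

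Markers of bipolar cells other than the 10 cascade genes were compared to place these values. The lists are not independent: *Gng13* and *Gnb3* are also among the partners above. *Cabp5* stands in both the rod bipolar and the ON cone bipolar list. In either direction, 13.3% of all genes had an unadjusted p under 0.05. Of 8 rod bipolar markers, *Cabp5* alone had an unadjusted p under 0.05, with a log2 fold change of -0.14 (SE 0.043), and 6 of 8 were negative, with a median of -0.068. The summed level of the list was 503 to 535 CPM in controls and 471 to 505 CPM in *Rbfox2*-/- retinas, overlapping in M902 only. Of 5 genes listed as ON cone bipolar markers, *Cabp5* and *Isl1* were lower with an unadjusted p under 0.05. *Isl1* had 65.6 to 69.6 CPM in controls and 57.0 to 61.6 CPM in *Rbfox2*-/- retinas. Its log2 fold change was -0.19 (SE 0.037, edgeR adjusted p = 0.116). The values of both genes are of whole retina and were not assigned to ON cone bipolar cells. Among markers shared by bipolar cells, *Gng13* and *Trnp1* were lower with an unadjusted p under 0.05 and without overlap, at log2 fold changes of -0.14 and -0.16. Of 8 OFF bipolar markers none had an unadjusted p under 0.05, and their median was -0.011. Of the 26 bipolar markers, edgeR's quasi-likelihood and likelihood ratio tests, limma-voom and limma-trend called 0 at an FDR of 0.05. DESeq2 called 3 (*Isl1*, *Gng13* and *Trnp1*), and 2.80% of all genes. Whether the number of bipolar cells differed was not tested.

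For other cell types, an unadjusted p under 0.05 was found for 1 of 5 Muller glia markers (*Glul*, lower), 2 of 4 horizontal cell markers (*Calb1*, lower, and *Lhx1*, higher), 2 of 3 vessel markers (*Pecam1* and *Rgs5*, lower), 1 of 6 ciliary and pigment epithelium markers (*Best2*, lower) and 0 of 6 amacrine, 7 ganglion cell, 3 microglia and 3 lens markers. The share of all genes with such a p was 13.3% in either direction, and these lists are short. *Calb1*, with a log2 fold change of -0.40, was the 1 marker that the quasi-likelihood test of edgeR called at an FDR of 0.05, and without M901 and M902 its edgeR adjusted p was 0.0501. DESeq2 also called *Gnat1*, *Pde6b*, *Sag*, *Opn1sw*, *Glul* and *Rgs5* beside the bipolar markers named above.

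Between mice of 1 group, the cascade genes varied by 3.14% (*Prkca*) to 15.3% (*Grm6*) as coefficient of variation in controls and by 3.95% (*Gpr179*) to 17.3% (*Nyx*) in *Rbfox2*-/- retinas. Control M898 was the lowest control for 6 of the 10 genes, M894 the highest for 5 and M833 the highest for 4. The summed level of the 10 genes was 1924 to 2123 CPM in controls and 1971 to 2051 CPM in *Rbfox2*-/- retinas, and all *Rbfox2*-/- sums fell inside the control range.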

How the data were processed

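Poly(A)-selected libraries of whole retina, 1 per mouse, were sequenced as paired reads. The authors aligned them to mm10 (GRCm38) with STAR, retained reads with a unique location and obtained gene-level fragment counts from HTSeq (the methods name both RefSeq and Ensembl annotation), and deposited these counts without normalization. The submitters' processing notes also name CASAVA 1.8.2 and edgeR. The authors also deposited FPKM, computed from the same counts with a gene length and the raw library total, which served here for levels only. The deposited table also holds the authors' normalized counts, fold changes and p-values with FDR, which were not used. No gene in it had 5 or more counts in fewer than 4 mice.

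In edgeR 4.0.16 under R 4.3.3, low counts were removed by filterByExpr, libraries were scaled by TMM, and the groups were compared by the quasi-likelihood F test of edgeR over all 16797 genes, without covariates, with Benjamini-Hochberg adjustment. Standard errors follow from the log2 fold change and the F statistic, with 95% intervals from the t distribution. Single values were also compared by an exact two-sided permutation test. CPM are counts scaled to the TMM library size. A procedure check on simulated data with known changes preceded the fit. Genes were placed by symbol on GENCODE M21. The mice are taken as separate animals from their numbers, and groups come from the sample titles.

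Alternatives were upper-quartile normalization, DESeq2 size factors, DESeq2 1.42.0, edgeR's likelihood ratio test, limma-voom and limma-trend (limma 3.58.1), no filter, at least 10 counts in every sample, each mouse left out, M901 and M902 left out, and 1 surrogate variable from sva 3.50.0. The genes, partner lists and marker lists were chosen with earlier results of these data known. Named were all 10 cascade genes, all partners, *Rbfox2*, *Xist*, and marker genes with p under 0.05 or of highest level. The element search, the gene ratios and counts per marker list without M901 and M902 were added after seeing the data. Blood markers were not analysed here. A few genes that the rule names are not reported here.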

Additional observations from a re-analysis of the deposited data

Results flagged for a closer look

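Of 86 groups of 4 mice (43 cascade, targeted and partner genes in each group), 3 had a mouse far from the other 3, measured as the distance to its neighbour as a share of the span of all 4. Chance flags about 1 in 20 groups, or 4.3 here, so the number is no more than chance gives. *Prkca* in M909 was far above the other *Rbfox2*-/- mice, with a share of 0.855 (501 CPM against 444 to 452 CPM). *Gnai3* in M893 was far below the others, with 0.888, and *Gnaz* in M901 was far below, with 0.885.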

How the results depend on the processing

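The number of all genes with an FDR under 0.05 was 11, and it was 460 with DESeq2, 164 with edgeR's likelihood ratio test, 4 with 1 surrogate variable and 1 without M901 and M902. With each mouse left out it was 5 to 35, with 35 without M833, 19 without M894, 6 without M898 and 5 without M896, M893, M901 or M909. Among cascade genes, DESeq2 gave 1 gene with an adjusted p under 0.05 (*Pcp2*) and 2 with an unadjusted p under 0.05 (*Grm6* and *Pcp2*). With each mouse left out, 0 had an FDR under 0.05 and 1 to 3 had an unadjusted p under 0.05: *Grm6* joined *Pcp2* without M894, *Trpm1* joined without M896, and *Nyx* and *Prkca* joined without M909. The cascade genes whose groups did not overlap numbered 1 or 2 with each mouse left out, *Prkca* being the second without M909. The matching shares of all genes were not computed. Between cascade genes, 8 of 45 ratios did not overlap without M901 and M902, against 14.4% of all gene pairs in the same mice. Only 4 of 10 genes kept their rank by level with annotated exon length.

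Over 180 values of the cascade genes under alternatives, 165 kept their direction and side of the threshold, 14 changed sign and 1 passed the threshold (*Pcp2* with DESeq2). Without M901 and M902 and with 1 surrogate variable, the log2 fold change was -0.084 and -0.11 for *Nyx*, -0.0017 and -0.0054 for *Gpr179*, and -0.015 and -0.033 for *Lrit3*. With each mouse left out it was -0.032 to 0.052 for *Gpr179*, -0.046 to 0.021 for *Rgs7* and -0.010 to 0.16 for *Rgs11*. The median over the cascade genes, 0.029 over all mice, was -0.021 without M898, -0.017 without M901 and M902 and -0.021 with 1 surrogate variable. Without M901 and M902 the sign also turned for the partners *Lrit1* (-0.0028) and *Dag1* (0.019) and the markers *Nefl* (-0.0086), *Thy1* (-0.021), *Rpe65* (0.14), *Cryba1* (0.23) and *Cx3cr1* (0.019). The cause of these changes was not tested. No paired analysis was possible because the 2 groups share no mouse numbers.

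With 4 mice per group, the 95% intervals of the cascade genes allow differences of up to 31.9% (*Grm6*), and differences inside these intervals are not resolved by this design. Depth is not the limit, since the lowest cascade count was 5197. No control had the *Xist* level of M901 and M902, so values that rest on these libraries have no matching control.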
